A study of Rattus norvegicus with 6 samples.

Results

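The genes described here are those of the interleukin-6 (IL-6) cytokine family, its receptors and its main signaling branch in rat myocardium. They are 4 cytokines (Il6, Il11, Lif and Osm), 4 receptor chains (Il6r, Il6st, Lifr and Osmr), the feedback inhibitor Socs3 and the transcription factor Stat3. They were taken from the expression table by gene symbol, and all 10 were listed among 28293 genes. The family was proposed with earlier results of the sham and MI/RI comparison known and so counts as selected on its FPKM difference in that comparison, and these values are given as a description. No p-value is given for a member, and where members are counted against the threshold of the fit across all genes, the count is a description too. Myocardial tissue from 3 sham samples and 3 MI/RI samples was sequenced, all from male rats labelled WT. In the MI/RI group, which the labels call I/R, the left anterior descending coronary artery was tied for 30 min and released, and the heart was taken after 6 h of reperfusion. The titles of the sham samples carry the same times. The strain, the age and the part of the heart sampled are not given in the sources used here, nor is it said that each sample came from a separate rat, so p-values measure the spread between these samples.

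Cytokines of the IL-6 family share the signal-transducing receptor chain gp130, which is encoded by Il6st. IL-6 and IL-11 first bind their own receptor chain and then bring gp130 molecules together, whereas LIF and oncostatin M signal through gp130 paired with the LIF receptor or, for oncostatin M, the oncostatin M receptor. The receptors activate Janus kinases (JAK), which phosphorylate STAT3, and STAT3 in turn drives transcription of Socs3, whose product shuts the receptor down. In the heart the pathway is best known for its activation after infarction and for its part in cardiomyocyte survival, inflammation and dedifferentiation.

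Expression was deposited as FPKM, that is, fragments normalised for the length of the gene and the depth of the library, so levels of different genes can be compared per length. Differences between groups are given as log2 fold changes on the log2(FPKM + 0.1) scale, MI/RI minus sham, on which low genes appear to change less than they did. The absolute depth is unknown. At low expression, however, values moved in whole steps, and these steps placed the depth of the samples between 0.873 and 1.18 of that of sham replicate 1, with the 3 MI/RI samples the shallowest. mRNAs encoded by mitochondrial DNA made up 80.1% to 86.2% of the summed FPKM in the sham group and 61.8% to 71.5% in the MI/RI group. FPKM are shares of a library, and the median log2 fold change of the 10942 genes tested with limma was 0.29, a value that moved to 0.04 after centring each sample on its median gene, to −0.02 after quantile normalization and to −0.46 when each sample was rescaled without its mitochondrial mRNAs (the nuclear rescaling). Among genes past an adjusted p of 0.05 in limma, 77.6% were higher in the MI/RI group as deposited, against 56.5%, 48.0% and 21.7% under those scalings. Tissue comes as a mixture, in which fewer cells of a type and less RNA per cell cannot be told apart.

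Among the cytokines, Il6, Lif and Osm were low in the sham group and higher in every MI/RI sample than in any sham sample, while Il11 was listed at 0 throughout. Il6 (ENSRNOG00000010278), the founding member of the family, was listed at 0.0290, 0 and 0 FPKM in sham replicates 1 to 3, against 5.12, 6.12 and 8.60 FPKM in the MI/RI replicates in the same order. No sham sample came near the lowest MI/RI sample. Multiplied by relative depth, these values were whole multiples of a common step, with 3, 0 and 0 steps in the sham samples and 462, 592 and 784 steps in the MI/RI samples. If a step is a single fragment, the 0 of sham replicates 2 and 3 allows up to 0.0246 and 0.0255 FPKM, taking 3 fragments as the limit. The ratio of the summed steps, per unit of depth, was then 756, with an exact 95% interval of 258 to 3667 that covers counting error only. The fitted log2 fold change of 5.91 (limma standard error 0.32) depended on the constant added before taking logs. It was 2.89 with a constant of 1 and 8.68 with 0.01. Only 2 of the 10942 genes tested had a larger one as deposited.

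Il6 is the member whose fold change was largest as deposited (with a constant of 1 that of Socs3 was 2.91, against 2.89), so the 250 bases before its annotated start are shown, from RefSeq (build GRCr8, minus strand, chr4:5894576-5894825, 5′ to 3′). Capitals mark, in order, TGACGTCA, the cyclic AMP response element, TTGNGCAA, a C/EBP motif, and GGGA followed by any base and TTTCC, an NF-κB motif.
Il6: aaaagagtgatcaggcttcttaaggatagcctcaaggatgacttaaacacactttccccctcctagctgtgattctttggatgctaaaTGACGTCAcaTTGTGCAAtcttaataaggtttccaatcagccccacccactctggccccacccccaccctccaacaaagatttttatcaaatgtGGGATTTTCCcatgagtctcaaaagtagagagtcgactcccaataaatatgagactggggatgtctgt
The letters were searched on both strands with this window in view, and the marked stretches do not overlap. The first lay at positions −162 to −155, the second at −152 to −145 and the third at −68 to −59 from the start. The response element was present in 1.59% of 33469 rat windows of this length, the C/EBP motif in 2.29% and the NF-κB motif in 0.314%. Windows were available for 8 of the members (Il6, Il11, Il6r, Il6st, Lifr, Osmr, Socs3 and Stat3), and Il6 alone held any of these 3 motifs. The STAT motif TTCNNNGAA, found in 7.67% of all windows, was in 0 of the 8. Only these windows before the annotated starts were searched, so a motif missing from them may lie elsewhere near the gene. A match is a description of letters and not of binding.

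Lif (ENSRNOG00000007002), a cytokine that signals through gp130 and the LIF receptor, was listed at 0.0127, 0.0107 and 0.0111 FPKM in sham replicates 1 to 3. It reached 0.377, 0.352 and 0.531 FPKM in the MI/RI replicates. The groups lay far apart, but the sham values were 1 step each, against 26, 26 and 37 steps in the MI/RI samples. The ratio of summed steps per unit of depth was 36.6 (exact 95% interval 12.1 to 181, counting error only). Osm (ENSRNOG00000024390) encodes oncostatin M, a cytokine made mainly by neutrophils and macrophages. It was listed at 0.142, 0.0218 and 0.113 FPKM in the sham samples, or 11, 2 and 10 steps. In the MI/RI samples it was 0.457, 0.605 and 1.09 FPKM, or 31, 44 and 75 steps. The lowest MI/RI value was above the highest sham value, and the ratio of summed steps was 8.04 (exact 95% interval 5.16 to 13.1, counting error only). Lif and Osm had a mean below 0.5 FPKM over the 6 samples and were left out of the fit across genes. When every gene was fitted, their log2 fold changes were 2.21 (standard error 0.24) and 2.08 (standard error 0.42). Neither gene was fitted under the 3 other scalings. The step ratios take no account of the difference in mitochondrial share between the groups. Il11 (ENSRNOG00000017386) was listed at 0 in all 6 samples. Since widely expressed genes such as Junb and Stat6 were also listed at 0 in all 6, nothing was read from this.

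**Figure D1:**
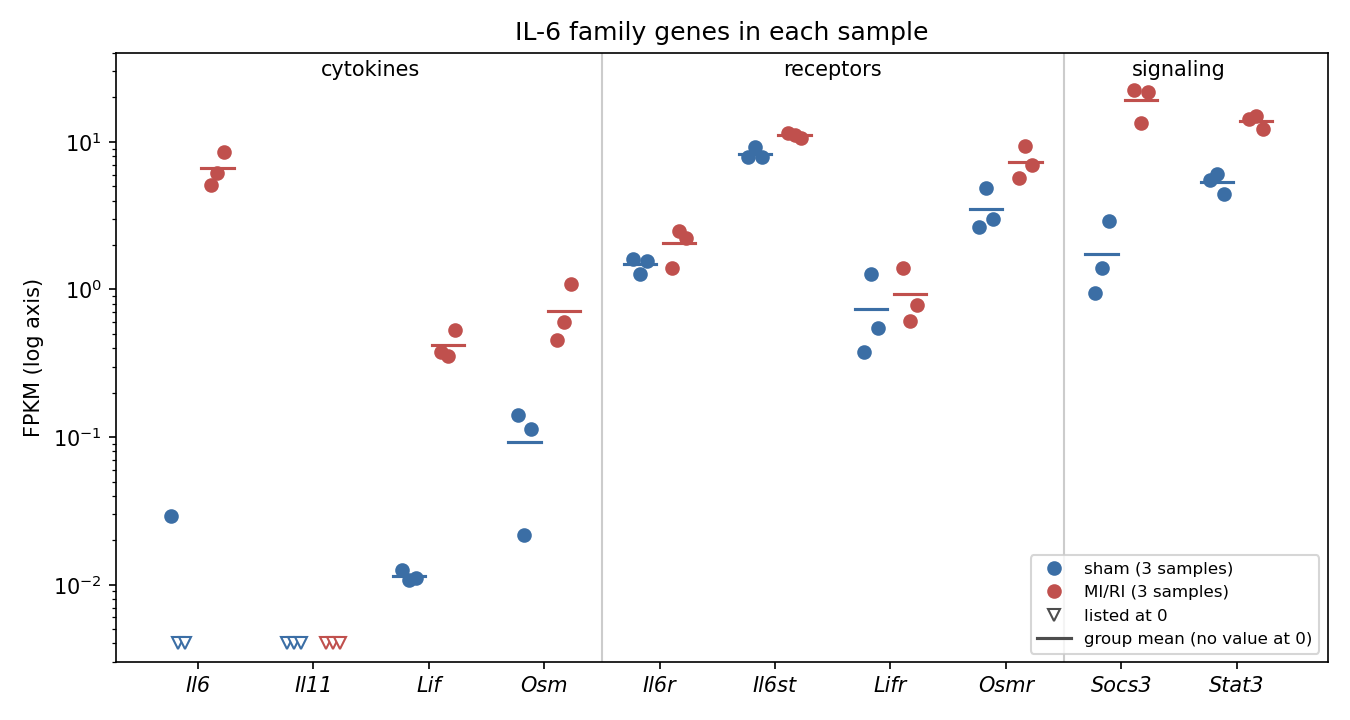
FPKM (log axis) of the 10 IL-6 family genes in each of the 3 sham samples (blue) and 3 MI/RI samples (red). Horizontal lines are group means and open triangles are values listed at 0. Il6, Lif, Osm, Il6st, Osmr, Socs3 and Stat3 had every MI/RI sample above every sham sample, whereas Il6r and Lifr overlapped.

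The receptor chains were present in both groups, and their differences were small beside those of the cytokines. Il6st (ENSRNOG00000013963), which encodes gp130, was 7.92, 9.16 and 7.93 FPKM in sham replicates 1 to 3, against 11.4, 11.1 and 10.7 FPKM in the MI/RI replicates in the same order. The groups did not overlap, although its log2 fold change was only 0.41 (standard error 0.21), close to the median of all genes. It turned negative after quantile normalization (−0.21) and under the nuclear rescaling (−0.37). Osmr (ENSRNOG00000033192), the oncostatin M receptor, was 2.64, 4.86 and 2.99 FPKM in the sham samples and 5.66, 9.39 and 6.97 FPKM in the MI/RI samples. Each MI/RI sample was above each sham sample, and sham replicate 2 and MI/RI replicate 2 were the highest of their groups. The log2 fold change of Osmr was 1.07 (standard error 0.29), and 17.3% of the genes tested had a larger one.

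Il6r (ENSRNOG00000020811), the IL-6 binding chain, was 1.60, 1.28 and 1.55 FPKM in sham replicates 1 to 3, against 1.41, 2.51 and 2.25 FPKM in the MI/RI replicates in the same order. MI/RI replicate 1 lay within the sham range and the other MI/RI samples above it. Its log2 fold change was 0.42 (standard error 0.27), and −0.33 under the nuclear rescaling. Lifr (ENSRNOG00000011696), the LIF receptor, was 0.375, 1.28 and 0.548 FPKM in the sham samples and 1.41, 0.612 and 0.786 FPKM in the MI/RI samples. The groups overlapped widely, and relative to its mean Lifr had the largest SD of the receptor chains in both (0.734 ± 0.481 and 0.936 ± 0.419 FPKM, SD, n = 3 each). Its log2 fold change of 0.39 had a standard error of 0.45 and became −0.31 under the same rescaling.

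Stat3 and its target Socs3 were both at higher levels in every MI/RI sample than in any sham sample. Stat3 (ENSRNOG00000019742), the transcription factor that most of these receptors activate, was 5.52, 6.05 and 4.41 FPKM in sham replicates 1 to 3, against 14.3, 15 and 12.2 FPKM in the MI/RI replicates in the same order. The means were 5.33 ± 0.84 and 13.9 ± 1.43 FPKM (SD, n = 3 each), and the log2 fold change was 1.37 (standard error 0.22). Socs3 (ENSRNOG00000063373), which blocks gp130 and JAK, was 0.947, 1.40 and 2.89 FPKM in the sham samples and 22.5, 13.5 and 21.8 FPKM in the MI/RI samples. Sham replicate 3 was the highest of its group, yet it stayed well below the lowest MI/RI sample. The means were 1.75 ± 1.02 and 19.3 ± 5.0 FPKM (SD, n = 3 each), with a log2 fold change of 3.49 (standard error 0.38), and 33 genes of those tested had a larger one.

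Of the 10 members, 7 passed the filter and were tested in limma, and Il6 passed it through the MI/RI group alone. Il6, Socs3, Stat3 and Osmr were past the threshold as higher, which is 4 of 7, against a background of 25.5% of all genes tested. None was past it as lower (0 also at an unadjusted p under 0.05 in limma), against 7.36% of all genes. In 5 of the 7 every MI/RI sample was above every sham sample, against 37.2% of all genes, and in 0 every MI/RI sample was below, against 13%. As the members were proposed from this contrast, nothing is read from these counts, nor from which alternatives kept them. Osmr was no longer past the threshold under any of the 3 other scalings, with no filter, or without sham replicate 1 (log2 fold change 0.90), sham replicate 3 (0.98) or MI/RI replicate 2 (0.88). Stat3 lost its call under the nuclear rescaling, where its log2 fold change was 0.59.

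**Figure D2:**
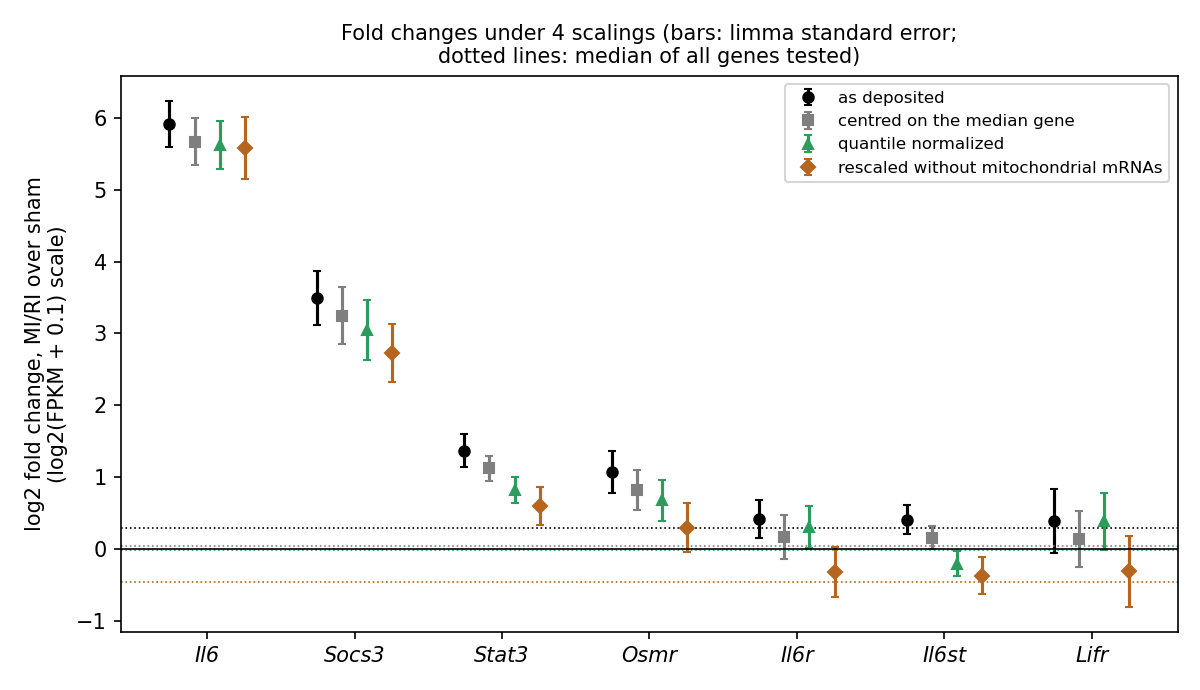
Log2 fold change (MI/RI over sham, log2(FPKM + 0.1) scale) of the 7 members tested, as deposited and under 3 other scalings. Bars are limma standard errors and dotted lines the median of all genes tested under each scaling. Il6 lay between 5.58 and 5.91 and Socs3 between 2.73 and 3.49, whereas Il6r, Il6st and Lifr lay on both sides of 0. Sham values of Il6 were below the added constant of 0.1, so the nuclear rescaling could hardly move them on this scale.

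The order of the levels changed between the groups. In the sham samples Il6st was the most abundant member (mean 8.34 FPKM), ahead of Stat3 (5.33), Osmr (3.5), Socs3 (1.75) and Il6r (1.48). The ranges of Stat3 and Osmr, Osmr and Socs3, and Socs3 and Il6r overlapped, so the order within these pairs was not resolved. Lifr (0.734 FPKM) lay below Il6r, and the cytokines below Lifr. The lowest Il6r value and the highest Lifr value, both in sham replicate 2, were 1.28 FPKM each to 3 digits, so the order of this pair was not resolved either, whereas Lifr did not overlap with the cytokines. In the MI/RI samples Socs3 came first (19.3 FPKM), and its range overlapped with that of Stat3 (13.9). Il6st (11.1) followed with no overlap, then Osmr (7.34) and Il6 (6.62), which overlapped with each other. Il6 was thus at a level per length similar to that of Osmr and above every MI/RI value of Il6r (mean 2.05) and Lifr (0.936), whose ranges overlapped with each other. Lifr overlapped with Osm (0.719) and Osm with Lif (0.420).

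Differences between genes within a sample do not depend on how the library was scaled, apart from the added constant and quantile normalization, and were used to compare members with each other. Socs3 minus Stat3 was −2.42, −2.03 and −0.59 on the log2 scale in sham replicates 1 to 3, against 0.65, −0.15 and 0.83 in the MI/RI replicates. The groups did not overlap, so Socs3 differed more between the groups than Stat3 did, by 2.12 on average. Between samples of the same replicate number it was 3.07, 1.88 and 1.42 more. Osmr minus Il6st was −1.55, −0.90 and −1.38 in the sham samples and −1.0, −0.24 and −0.61 in the MI/RI samples. MI/RI replicate 1 fell within the sham range, and the means differed by 0.66. Between samples of the same replicate number, taken as pairs although the labels state none, the differences were 0.55, 0.66 and 0.77, all of the same sign. Osmr minus Lifr was 2.53, 1.84 and 2.25 in the sham samples and 1.93, 3.74 and 3.0 in the MI/RI samples. These groups overlapped too, and the mean difference of 0.68 was 0.25 without MI/RI replicate 2 and 1.16 without MI/RI replicate 1. Within pairs they were −0.60, 1.89 and 0.74, of both signs. In all 6 samples the oncostatin M receptor was more abundant per length than the LIF receptor and less abundant than gp130.

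**Figure D3:**
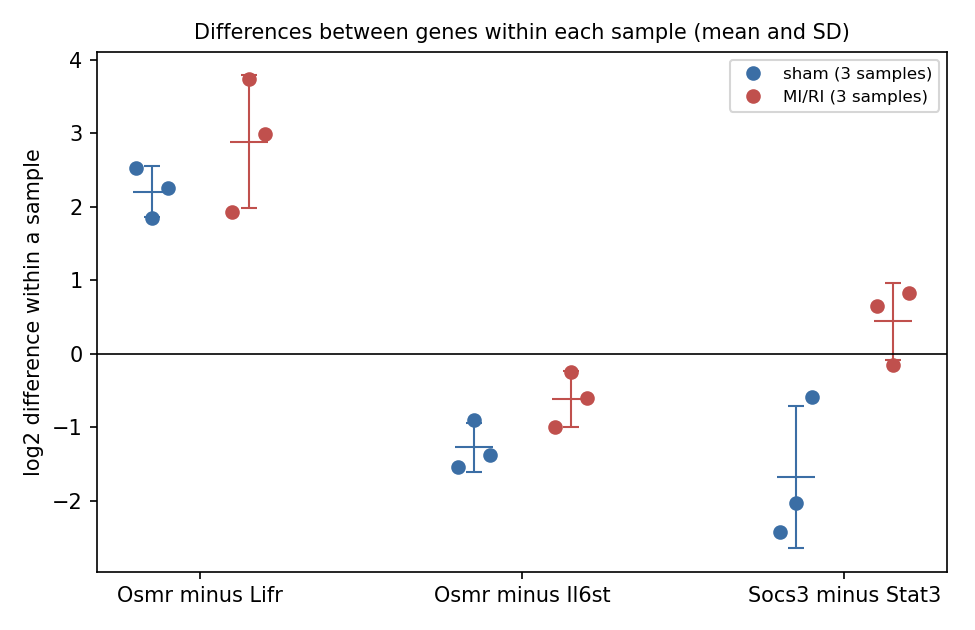
Log2 differences between pairs of members within each sample, on the log2(FPKM + 0.1) scale, in 3 sham (blue) and 3 MI/RI samples (red). Horizontal marks and bars are mean and SD. Socs3 minus Stat3 separated the groups, while the differences of Osmr from Lifr and Il6st overlapped.

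The other genes of the pathway were taken from 4 lists drawn up by function and tested in the same fit, in which 25.5% of all genes were higher and 7.36% lower. The lists were chosen with earlier results of these data known. Their counts and adjusted p-values are therefore given as a description and not as an independent test. Of 12 other ligands and receptors of the family, 10 were listed and 6 tested. Only Ebi3, which encodes the shared chain of IL-27 and IL-35, was higher, and 0 were lower (0 at an unadjusted p under 0.05, limma). Ebi3 was 0.224, 0.190 and 0.108 FPKM in sham replicates 1 to 3, against 0.584, 1.40 and 0.856 FPKM in the MI/RI replicates in the same order, which is 1.88 higher on the log2 scale (standard error 0.44, adjusted p = 0.011, limma). Il11ra1, the IL-11 binding chain, averaged 12.3 ± 1.71 FPKM in sham samples against 20.6 ± 5.86 FPKM after MI/RI (SD, n = 3 each). Its log2 fold change of 0.70 did not pass (adjusted p = 0.069, limma), but did so with the replicate number as a block (adjusted p = 0.027, limma). Ebi3 passed the filter through the MI/RI group alone, so that its presence among the tested genes depended on the difference itself, and it was past the threshold with no filter as well (adjusted p = 0.027, limma). It was not under the nuclear rescaling (1.30, adjusted p = 0.059, limma). Without MI/RI replicate 2, Ebi3 fell below the filter and Il11ra1 was past the threshold in its place (0.94, adjusted p = 0.039, limma). Over the tested genes of this list the median was 0.27 on the log2 scale, beside 0.29 for all genes tested.

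Of 10 JAK kinases and other STAT genes, 9 were listed and 7 tested, with 1 higher and 1 lower, beside 25.5% and 7.36% of all genes. The median log2 fold change was 0.08, beside 0.29 for all genes, and −0.68 under the nuclear rescaling, beside −0.46. Jak2, the kinase bound to many cytokine receptors, was 0.696, 1.02 and 0.825 FPKM in the sham samples and 1.76, 1.70 and 2.17 FPKM in the MI/RI samples (log2 fold change 1.07, standard error 0.25, adjusted p = 0.012, limma). Tyk2, a related kinase, went the other way, from 1.71, 2.14 and 2.14 FPKM to 1.02, 0.929 and 0.980 FPKM (log2 fold change −0.95, standard error 0.23, adjusted p = 0.013, limma). The groups did not overlap for either gene. Without sham replicate 3, Tyk2 was no longer past the threshold (log2 fold change −0.90, adjusted p = 0.066, limma), and Jak2 was not under the nuclear rescaling (0.34, adjusted p = 0.48, limma).

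Several negative regulators besides Socs3 were higher in the MI/RI group as deposited. All 14 negative regulators of JAK-STAT signaling on the list were tested. Of these, 6 were higher, beside 25.5% of all genes, and 0 lower (1 at an unadjusted p under 0.05, limma), beside 7.36%. The median log2 fold change was 0.39, beside 0.29 for all genes tested. It was 0.15 after quantile normalization, beside −0.02, and −0.34 under the nuclear rescaling, beside −0.46. The 6 were Socs5, Ptpn1, Socs1, Cish, Ptpn2 and Socs2. Socs5, a SOCS protein best known from cytokine and growth factor receptors, averaged 1.24 ± 0.27 FPKM in sham samples against 3.53 ± 0.41 FPKM after MI/RI (SD, n = 3 each), with a log2 fold change of 1.45 (adjusted p = 0.0037, limma). Ptpn1, a phosphatase that acts on JAK2 and TYK2, averaged 2.18 ± 0.66 and 5.35 ± 0.26 FPKM (log2 fold change 1.30, adjusted p = 0.0068, limma). Socs1, an inhibitor of JAK kinases, averaged 1.18 ± 0.18 and 2.86 ± 0.67 FPKM (log2 fold change 1.20, adjusted p = 0.0085, limma). Without sham replicate 3, Cish (log2 fold change 0.80) and Socs2 (0.73) were no longer past the threshold, and without MI/RI replicate 2 neither were Socs2 (0.67) and Ptpn2 (0.79). Socs2 and Ptpn2 also lost their calls after centring on the median gene (0.58 and 0.70) and after quantile normalization (0.21 and 0.73), which left 4 higher in each. The 4 PIAS genes, which encode inhibitors of activated STAT proteins, did not pass in either direction. Pias3, the inhibitor named for STAT3, had a log2 fold change of −0.90 (adjusted p = 0.057, limma), and was past the threshold as lower under each of the 3 other scalings (−1.14, −1.64 and −1.08). Under the nuclear rescaling, 0 of the 14 were higher and 3 were lower in limma, and the log2 fold changes of Socs5, Ptpn1 and Socs1 were 0.70, 0.54 and 0.46.

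Of 25 STAT3 target and acute phase genes, 18 were tested, of which 13 were higher, beside 25.5% of all genes, and 0 lower (0 at an unadjusted p under 0.05, limma), beside 7.36%. The median log2 fold change was 1.69, beside 0.29 for all genes tested. It was 1.13 after quantile normalization, beside −0.02, and 0.93 under the nuclear rescaling, beside −0.46. Many of these genes have other regulators as well. Fos, an immediate early transcription factor, was 0.611, 0.530 and 0.420 FPKM in sham replicates 1 to 3, against 50.7, 8.74 and 9.81 FPKM in the MI/RI replicates in the same order (log2 fold change 4.74, standard error 0.56, adjusted p = 0.0014, limma). MI/RI replicate 1 stood far above the other samples, and without it the log2 fold change was 3.93. Cebpb, the C/EBP beta factor of the acute phase response, was 23.7, 6.85 and 3.16 FPKM in the sham samples and 125.6, 91.5 and 93.1 FPKM in the MI/RI samples (log2 fold change 3.65, standard error 0.58, adjusted p = 0.0035, limma). Myc was 1.07, 1.91 and 0.936 FPKM in the sham samples and 11.5, 12.0 and 13.0 FPKM in the MI/RI samples (log2 fold change 3.18, standard error 0.27, adjusted p = 0.00032, limma). The other genes called higher were Icam1, Bcl3, Lcn2, Cebpd, Timp1, Pim1, Ccnd1, Il4r, Bcl2l1 and Mcl1, with log2 fold changes between 1.15 and 2.52. Bcl2l1, Il4r and Mcl1 were not past the threshold under the nuclear rescaling, and Bcl2l1 also without sham replicate 3 (0.80), MI/RI replicate 1 (1.23) or MI/RI replicate 2 (1.15). After quantile normalization Cebpd (1.12), Bcl2l1 (0.74) and Mcl1 (0.24) lost their calls, and Bcl2l1 lost it with centring and with no filter too. Cp, Irf1, Lbp, Orm1 and Vegfa did not pass, of which Cp (−1.42), Lbp (−1.05) and Vegfa (−1.24) were lower under the nuclear rescaling, Vegfa after quantile normalization (−1.41) and Cp without sham replicate 1 (−0.96). A2m and Hp were below the filter. Fga, Fgb, Fgg, Junb and Serpina3n were listed at 0 in every sample, from which nothing was read.

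**Figure D4:**
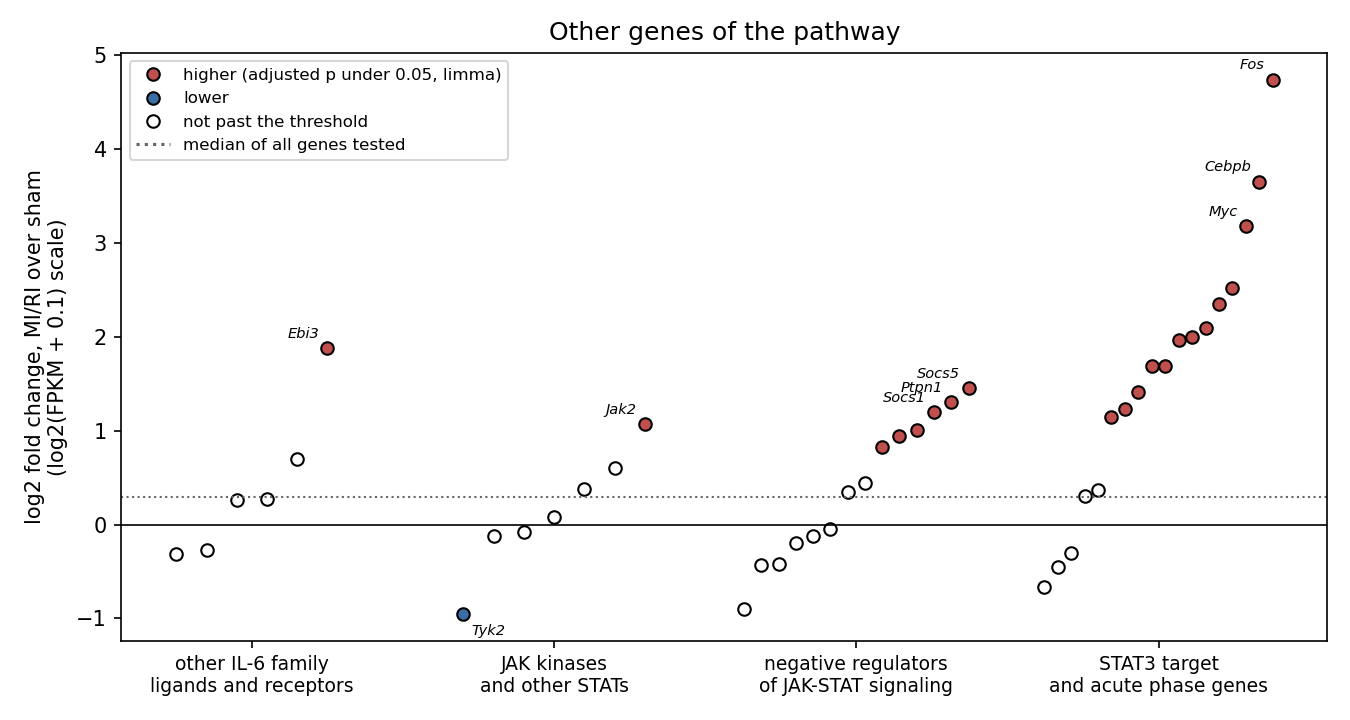
Log2 fold change (MI/RI over sham, log2(FPKM + 0.1) scale) of each tested gene in the 4 pathway lists. Red and blue points were higher or lower in limma at an adjusted p under 0.05, open points were not past it, and the dotted line is the median of all genes tested, 0.29. Of the 18 STAT3 target and acute phase genes tested, 13 were higher, beside 25.5% of all genes tested. The lists were chosen with earlier results known.

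Markers of some cell types differed between the groups alongside these genes, in the fit that called 25.5% of all genes higher and 7.36% lower. Of 6 neutrophil markers, 4 were tested and 3 were higher, although Mmp8, called higher, and Csf3r, not called, passed the filter through the MI/RI group alone. Their summed level was 12.9 to 17.7 FPKM in sham samples, against 28.5 to 83.8 FPKM after MI/RI. MI/RI replicate 3, which had the highest neutrophil sum, also had the highest Il6, Lif and Osm. MI/RI replicate 2 had a higher sum than MI/RI replicate 1 (62.8 against 28.5 FPKM). It also had higher Il6 and Osm, but lower Lif (0.352 against 0.377 FPKM). Of 7 monocyte and macrophage markers, 1 was higher and 3 were lower, and their sum was 15.7 to 19.6 FPKM in sham samples, against 17.8 to 21.1 FPKM after MI/RI. Cardiomyocyte markers, abundant in every sample, were higher in 5 of 7, with a sum of 3226 to 10524 FPKM in the sham group, the highest in sham replicate 1, and of 21184 to 30388 FPKM in the MI/RI group. Fibroblast markers were higher in 2 of 7 (420.1 to 580.9 FPKM in sham samples, against 605.0 to 669.3 FPKM after MI/RI). Endothelial markers were higher in 0 of 6 and lower in 0 (1 each at an unadjusted p under 0.05, limma), with sums of 159.6 to 211.2 and 159.4 to 192.8 FPKM. The median log2 fold change was 0.57 for fibroblast and −0.02 for endothelial markers as deposited, but −0.22 and −0.81 under the nuclear rescaling and −0.49 and −1.0 after quantile normalization. For neutrophil markers it was 1.75, 0.97 and 1.14 in the same order, and for cardiomyocyte markers 1.92, 1.13 and 1.47. Monocyte and macrophage markers had medians of 0.08, −0.69 and −0.27. No marker on these lists was at 0 in all samples. The part of these cell types in the values of the IL-6 family was not tested.

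The genes whose pattern over the 6 samples was most like that of Stat3, among 9111 with a mean of at least 1 FPKM, were Sar1a (Pearson r = 0.998), Msantd3 (0.996) and Anp32e (0.996). Those most like Il6 were Ccdc86 (0.997), Psma2 (0.997) and Ackr3 (0.997). These correlations are descriptions over 6 samples that fall into 2 groups and mostly follow the difference between the groups, since 647 genes had an r above 0.95 with Stat3 and 405 with Il6.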

How the data were processed

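Libraries were made by the authors from total RNA of rat myocardium with a stranded kit. The submitters' processing notes name STAR and HTSeq without versions, and the genome build and annotation are not given in the sources used here. The authors deposited 1 table of FPKM values for 30452 Ensembl genes, with 1 column for each of the 6 samples. Rows that shared a symbol were summed (7092 rows without a symbol kept their identifier). Groups came from the treatment label.

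Log2(FPKM + 0.1) was compared between groups with limma 3.58.1 in R 4.3.3 (intensity trend, Benjamini-Hochberg over 10942 genes with a mean of at least 0.5 FPKM, adjusted p under 0.05). The fit was tested on simulated data with independent noise and equal numbers of genes raised and lowered. Those data held no shift in mitochondrial share and no pairing. Relative depth was the commonest ratio between samples at values under 0.05 FPKM, and steps were accepted as whole within 0.02. Intervals of step ratios are exact (Clopper-Pearson, 95%). Samples with the same replicate number deviated together (correlations of 0.203, 0.117 and 0.118 across genes). The numbers were therefore taken to pair them, which the labels do not state. The mean correlation was 0.146 for these pairs. It was 0.101 with sham replicates 2 and 3 set against MI/RI replicates 3 and 2, so the pairing remains an assumption. The replicate block was added in a further fit.

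The members, lists and alternatives were chosen with earlier results of these data known. Named from each pathway list were the 3 genes with the largest change past the threshold, and for Stat3 and Il6 the 3 genes of highest correlation. Other genes were named after their values were seen. The alternatives were constants of 1 and 0.01, no filter or a mean of at least 2 FPKM, 3 scalings, no trend, the replicate block and leaving out each sample. Promoter windows are from RefSeq (GRCr8). Protein sequences were not used here.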

Additional observations from a re-analysis of the deposited data

How the results depend on the processing

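Over the 15 alternatives the log2 fold changes were 2.89 to 8.68 for Il6, which varied most with the constant, and 2.73 to 3.91 for Socs3. The members were selected on this contrast, so that keeping a call is no support. Rescaling without the mitochondrial mRNAs gave 793 genes higher and 2857 lower, 2 members higher, and in the 4 lists 0 (other ligands and receptors), 0 (JAK and STAT, with 2 lower), 0 (negative regulators, with 3 lower) and 10 (STAT3 target and acute phase genes, with 3 lower) genes higher. Il6r, Il6st and Lifr reversed to −0.33, −0.37 and −0.31, and Il6st also after quantile normalization (−0.21). Quantile normalization gave 1441 genes higher and 1559 lower, with 1 negative regulator and 1 STAT3 target or acute phase gene lower. Centring on the median gave 1554 lower, with 1 negative regulator among them. A mean of at least 2 FPKM gave 416 lower and left 0 calls among the other ligands and receptors and 0 lower among JAK and STAT genes, where the 1 higher gene was then Jak1 (0.60) in place of Jak2, which was no longer tested. The cause of these changes was not tested, except that this filter tests fewer genes. With no filter, 5 members were higher, since Lif and Osm then entered and Osmr was lost.

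Leaving out single samples gave 1526 to 2567 higher genes and 305 to 880 lower ones (1526 and 348 without sham replicate 3, 305 lower without sham replicate 2), 3 to 4 members were higher and 0 lower. Counts ranged over 1 to 1 higher and 0 to 0 lower (other ligands and receptors, where the gene was Il11ra1 in place of Ebi3 without MI/RI replicate 2), 1 to 1 and 0 to 1 (JAK and STAT), 4 to 6 and 0 to 1 (negative regulators) and 12 to 13 and 0 to 1 (STAT3 target and acute phase genes). The negative regulator called lower was Pias3, without sham replicate 1 or MI/RI replicate 1. The within-sample differences ranged over 0.25 to 1.16 (Osmr minus Lifr), 0.47 to 0.85 (Osmr minus Il6st) and 1.75 to 2.67 (Socs3 minus Stat3). The replicate block called 3085 genes higher and 895 lower. Under it 2 of the other ligands and receptors were higher, Il11ra1 being added, and no other call among members and pathway lists changed. Few steps limit the cytokines in the sham group most, where Il6 and Lif rest on 3 steps each, although the MI/RI samples were the shallowest.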
